A study of Mus musculus with 31 samples.

Results

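The matrix metalloproteinases (MMPs), the ADAMTS enzymes and their tissue inhibitors (TIMPs) were followed through every tumor and culture of a melanoma model treated with a glucocorticoid (GC). Members were taken by name, as each gene of the deposited counts called *Mmp*, *Adamts* or *Timp* followed by a number and, in some, a letter a or b. This gave 46 of 39179 genes, of which 23 are MMPs, 19 are ADAMTS enzymes and 4 are TIMPs.

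The study asked how a topical GC acts on melanoma in mice and whether the cancer cells need the glucocorticoid receptor (GR) for it. Both lines used here come from the melanoma line 20967, made from C57BL/6 mice of the background Nras+LSL-G12D;Tyr::CreERT2+/o, in which the inducible Cre is driven in melanocytes. The GR KO line is a clone of it, edited with CRISPR/Cas9 in *Nr3c1*, the gene for GR. RNA of whole tumors and of cultured cells was sequenced from its 3′ ends.

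*In vivo*, parental or GR KO cells were injected into the skin of the flank of wild type C57BL/6 mice, whose age was not stated and whose own cells kept GR. The mice received clobetasol propionate 0.05% ointment on the skin 3 times weekly as the GC, or a cream without GC as the control, with 5 tumors in each of the 4 groups. *In vitro*, parental cells were kept for 48 h in DMSO (3 cultures) or in clobetasol propionate (2 cultures), and GR KO cells in DMSO (3 cultures) or in clobetasol propionate (3 cultures). The treatment label gives 10 µM for the cultures and the library names give 1 µM, and which dose was used is not settled here. Since the GR KO line is 1 clone, loss of GR and other differences of that clone cannot be told apart. Tumors had 15528066 to 26386770 reads counted on genes and cultures 14441166 to 22463188. Levels are given as CPM, the reads of a gene relative to the library's depth after scaling with TMM factors, in which 3 counts correspond to 0.112 to 0.220 CPM in tumors and 0.136 to 0.207 CPM in cultures. These floors cover counting error only.

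GC-induced genes were first read as a check of the labels. *Tsc22d3*, a classical target of GR, rose by a log2 fold change of 2.34 in parental tumors, 1.77 in GR KO tumors and 3.09 in parental cells with GC (adjusted p from edgeR = 1.61e-05, 0.000403 and 2.28e-05). In GR KO cells its log2 fold change was -0.05 (adjusted p from edgeR = 0.984), so a response to the drug was measured in GR KO tumors, with their GR-bearing host cells, and not in the GR KO cells alone. RNA of *Nr3c1* itself was still counted in the knockout, at a mean of 27.0 CPM in GR KO control tumors against 54.6 CPM in parental ones and 20.7 against 32.9 CPM in DMSO-treated cells. With GC, its means were 41.9 CPM in GR KO and 42.6 CPM in parental tumors. As for the labelled cell type, the melanocyte markers *Tyr*, *Dct*, *Mlana*, *Sox10* and *Tyrp1* had no count in parental cells or in GR KO cells with DMSO. *Mitf*, the most abundant of the 7 melanocyte markers, had a mean of 10.2 CPM in parental cells with DMSO.

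MMPs are zinc-dependent proteases, secreted or anchored in the cell membrane, which are made as inactive precursors and cut collagens, other matrix proteins and signaling molecules. ADAMTS enzymes are secreted relatives that cut large proteoglycans such as versican and aggrecan or trim procollagens, and TIMPs block the active site of MMPs and, in the case of TIMP3, of several ADAMTS enzymes. In skin tumors these proteins are made by cancer cells and by fibroblasts, macrophages, neutrophils and other host cells, and they are known for remodeling the matrix around invading cells and vessels.

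Of the 46 members, 37 passed the filter on low counts in tumors (at least 0.5 CPM in at least 3 of the tumors) and 22 passed it in cultures. All 22 were among the 37, so 15 members could be tested in tumors only and 9 in neither. No sample held a count of *Mmp7*, *Mmp20* or *Mmp21*, and 13 members had no count in any culture. A mean of at least 10 CPM in some group was reached by 25 members in tumors and by 13 in cultures. A member is described as called where it was a DEG, which asked for an adjusted p under 0.05 over all genes tested and for a change of 1.5-fold or more in either direction.

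In parental tumors, GC raised *Adamts1*, a versican-cutting protease, and *Timp3*, the matrix-bound inhibitor, each by about the same log2 fold change, 1.15 and 1.05. These were 2 of the 37 members tested (5.41%), against 0.779% of all 15919 genes. The median log2 fold change was 0.27 over the members and 0.00 over all genes, and an unadjusted p under 0.05 was found for 35.1% of members against 14.1% of all genes. The count stayed at 2 in each of the 10 fits that left out 1 tumor. DESeq2 called 5 members (13.5%, against 2.37% of all genes), adding *Adamts2*, *Mmp9* and *Timp1*, and gave no adjusted p for 8 of the 37.

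In GR KO tumors, GC raised *Adamts1*, the stromelysin *Mmp11* and the inhibitor *Timp4*, and lowered the inhibitor *Timp1*. These 4 were 10.8% of the members tested, against 6.42% of all genes, and the median log2 fold change was 0.21 over the members and 0.05 over all genes. The count rested on few tumors: it was 11 without GR KO control tumor 4, 8 without GR KO GC tumor 4, and 2 without GR KO control tumor 2 or GR KO GC tumor 3. The number of genes called among all tested moved with it, to 2411, 1243, 488 and 303 in the same order. DESeq2 called 8 members, 2 up (*Adamts1* and *Mmp11*) and 6 down (*Adamts14*, *Mmp12*, *Mmp2*, *Mmp23*, *Mmp3* and *Timp1*). It gave no adjusted p for 10 of the 37 members, among them *Timp4*. The balance of directions depended on the settings, also within edgeR, which called 3 up and 3 down with the size factors of DESeq2. Of all 15919 genes DESeq2 called 1779 in GR KO tumors (11.2%, against 21.6% of members), 378 in parental tumors and 817 for the difference. With a filter of at least 10 counts in each tumor edgeR called 2 up and 5 down of 25 members, and 1238 of 10717 genes (28% against 11.6%).

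Whether GC acted differently in the 2 kinds of tumor was tested on the difference itself, and edgeR called 0 of 37 members, against 0.195% of all genes. At an unadjusted p under 0.05 there were 9 members (24.3%, against 20.1% of all genes), and the smallest adjusted p from edgeR was 0.0626, for *Mmp23*. DESeq2 called 5 (13.5%, against 5.13% of all genes) and gave no adjusted p for 12 of the 37. Without GR KO control tumor 4 edgeR called 7 (*Adamts12*, *Mmp11*, *Mmp13*, *Mmp14*, *Mmp2*, *Mmp23* and *Timp3*), and 8.10% of all genes in that fit. Without parental GC tumor 1 it called 2, *Mmp2* and *Mmp23* (0.271% of all genes), and without parental GC tumor 3 it called 1, *Mmp23* (0.46% of all genes). The median difference was 0.06 over the members and -0.04 over all genes.

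In parental cells, GC raised *Adamts1* and *Mmp19*, a secreted MMP that cuts basement membrane proteins, and lowered *Timp3*. These 3 of 22 members (13.6%) stand against 0.878% of all 12525 genes tested, and the median log2 fold change was -0.22 over the members and -0.00 over all genes. The count was 1, *Adamts1*, without parental GC culture 1 and 2, *Adamts1* and *Timp3*, without any of the other 4 cultures. In GR KO cells edgeR called 0 of 22 members and 0% of all genes. There, 0 members and 237 of all genes had an unadjusted p under 0.05, DESeq2 called 0, and the smallest adjusted p of a member from edgeR was 0.976. The median log2 fold change in GR KO cells was 0.03 over the members and 0.02 over all genes.

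The effects of GC in parental and GR KO cells differed for *Adamts1* and *Timp3*, 2 of 22 members against 0.295% of all genes. The median of the difference was -0.42 over the members and -0.03 over all genes. With the replicate number as a block the count was 1, *Adamts1*, against 0.216% of all genes. In 9 of the 11 fits that left out 1 culture the count was 1, *Adamts1*, all but those without parental DMSO culture 2 or GR KO GC culture 1, and the highest adjusted p of *Timp3* among the 11 was 0.267.

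**Figure D1:**
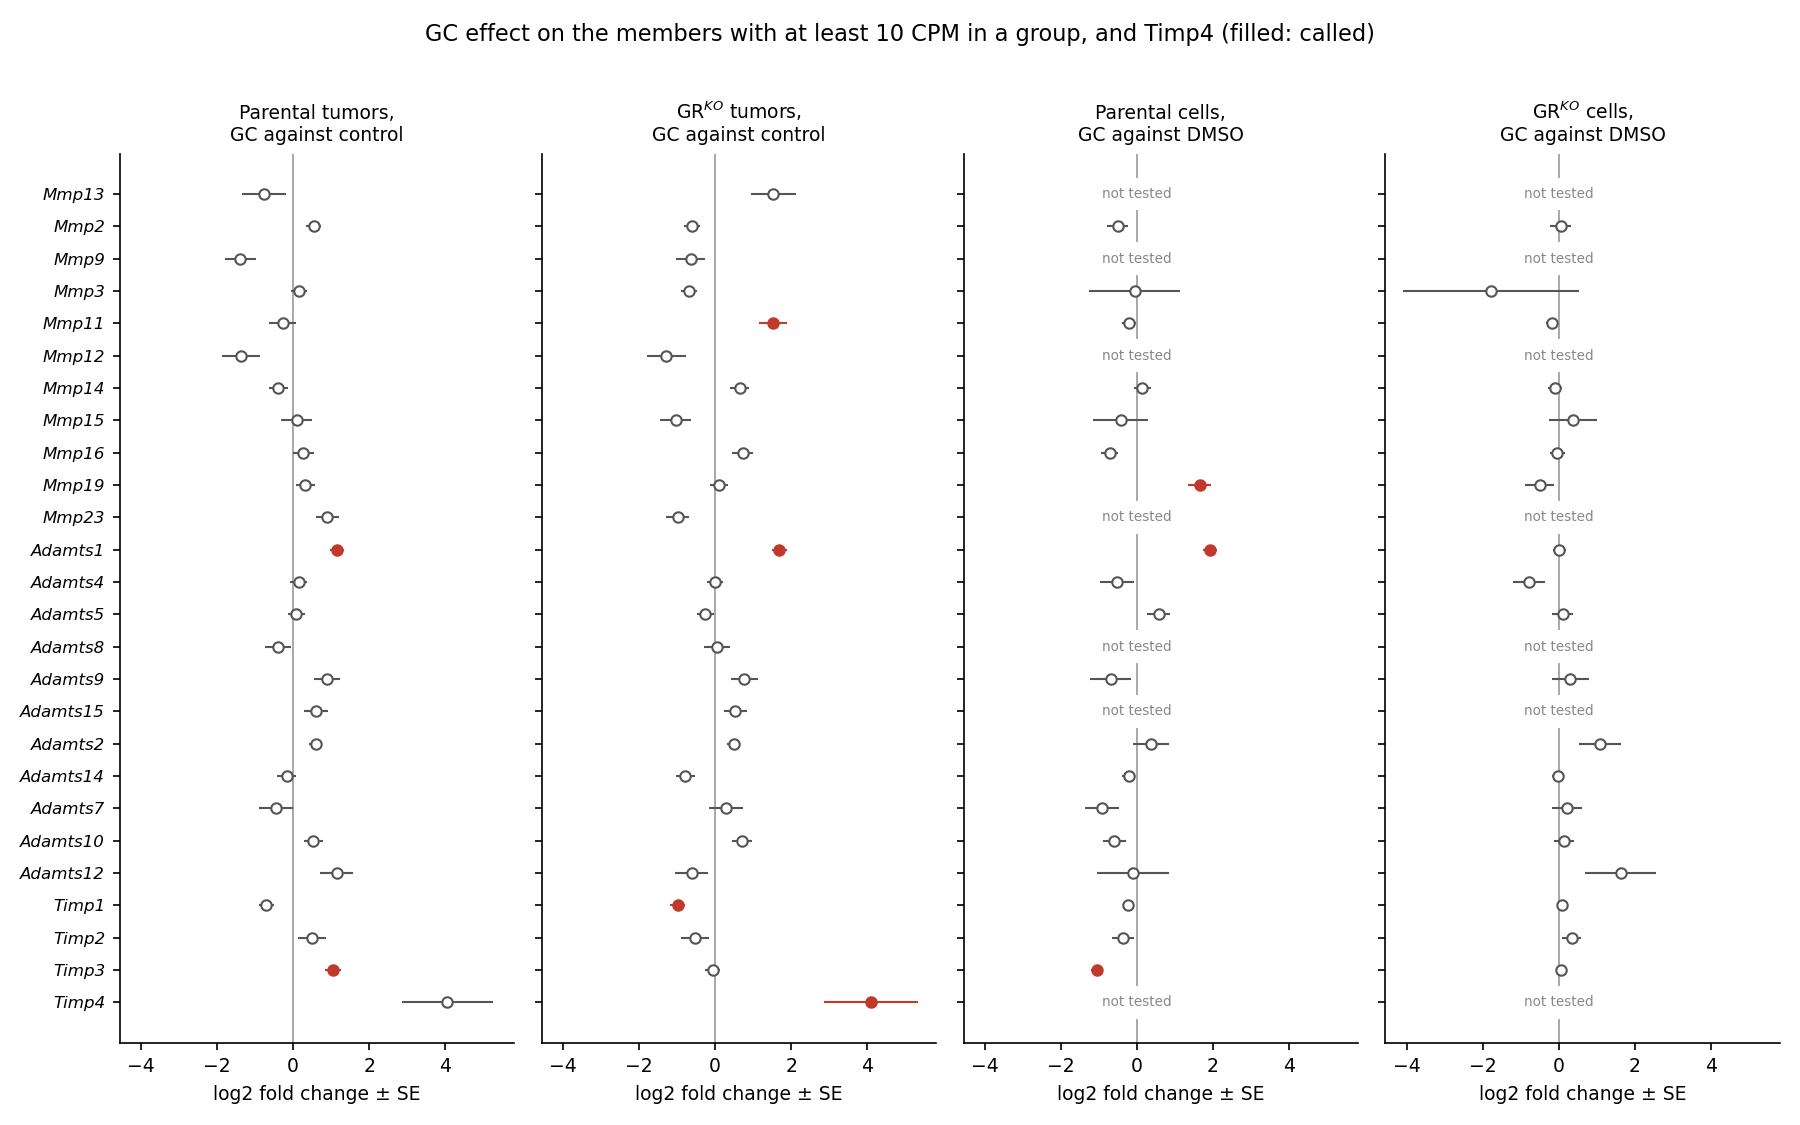
Log2 fold change with GC against control, for members with a mean of at least 10 CPM in some group and for *Timp4* (x axis, with the standard error as a bar) in 4 panels for parental tumors, GR KO tumors, parental cells and GR KO cells. Filled red points were called by edgeR: 2 in parental tumors, 4 in GR KO tumors, 3 in parental cells and 0 in GR KO cells, with members that did not pass the filter marked as not tested.

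Markers of several other cell types differed in the tumors with GC, and the part of those cells in the member results was not tested. Summed neutrophil markers stood at 22.7, 67.5, 244, 32.9 and 1277 CPM in parental control tumors 1 to 5 and at 14.6, 10.1, 11.1, 22.6 and 38.76 CPM in parental GC tumors. The GR KO tumors held 429.6, 786, 266, 178 and 1022 CPM in control and at 97.7, 49.8, 229, 201 and 137 CPM with GC. Control tumors were thus higher as a rule, with parental control tumor 5 far above the rest of its group. *S100a8* was the most abundant neutrophil marker, *Ly6g* had no count in any tumor, and 2 of 5 neutrophil markers tested fell in parental tumors and 0 of 5 in GR KO tumors. Of the skeletal muscle markers 1 of 5 fell in GR KO tumors, *Myh4*, with sums of 292 to 586 CPM in control and 248 to 356 CPM with GC. Of the keratinocyte markers 1 of 6 rose in parental tumors, *Krt15*.

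Summed fibroblast markers were 6682, 7330, 6866, 7385 and 6999 CPM in parental control tumors and 10690, 8305, 10660, 7705 and 10710 CPM in parental GC tumors. In GR KO control tumors they were 3574, 3902, 4467, 6520 and 5056 CPM, and with GC 9891, 8061, 11280, 7288 and 11080 CPM. Every GC-treated tumor thus lay above every control tumor of its line, GR KO control tumor 4 came nearest to the GC-treated ones and GR KO GC tumor 4 nearest to the controls. Of 7 fibroblast markers, 0 were called in parental tumors and 4 rose in GR KO tumors, none was at 0 in tumors, and the most abundant were *Col3a1* in parental and *Col1a1* in GR KO tumors. Endothelial markers moved the other way, with sums of 66.4, 55.1, 48.4, 72.0 and 49.6 CPM in parental control against 37.1, 21.6, 27.6, 38.81 and 35.8 CPM in parental GC tumors. Among GR KO tumors the endothelial sums were 100.4, 90.2, 108, 104 and 96.9 CPM against 52.1, 54.6, 49.3, 46.4 and 53.6 CPM. No control tumor overlapped with a GC-treated one of its line, *Kdr* was the most abundant of the 6 markers, none was at 0, and 0 were called in parental and 1 fell in GR KO tumors. Fewer cells of a type and less RNA per cell cannot be told apart in bulk samples.

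Among the collagenases, which open the triple helix of fibrillar collagen, only *Mmp13* and *Mmp8* were tested, in tumors. *Mmp13* ranged from 12.2 to 103 CPM in control tumors and from 12.9 to 206.9 CPM with GC, and the groups overlapped in both lines. Its log2 fold change with GC was -0.76 in parental and 1.53 in GR KO tumors, with an adjusted p from edgeR of 0.592 and 0.113. GR KO control tumor 4 held 86.3 CPM of it against 12.2 to 33.3 CPM in the others of that group. Without that tumor the GR KO log2 fold change was 2.26 (adjusted p from edgeR = 0.0147) and the difference between the lines -3.02 (adjusted p from edgeR = 0.0285, over the 20 such fits 0.0285 to 0.291). Without GR KO GC tumor 4 the GR KO effect was also called (1.80, adjusted p from edgeR = 0.0486, over the 10 such fits 0.0147 to 0.323). *Mmp8*, the collagenase of neutrophils, reached 4.12 CPM at most in any tumor and was not called. *Mmp1a* and *Mmp1b* did not pass the filter.

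The gelatinases cut denatured collagen and basement membrane collagen. *Mmp9*, which neutrophils store in granules, was at 146, 540.1, 578, 162 and 836 CPM in parental control tumors and at 138, 127, 257, 92.7 and 252 CPM in parental GC tumors. Of the GC-treated tumors, 3 lay below every control, and the log2 fold change of -1.39 was not called by edgeR (adjusted p = 0.112) and was called by DESeq2. The GR KO means were 182 CPM in control and 116 CPM with GC. The neutrophil marker sums given before were also lower with GC in these parental tumors, and tumor 5 of the parental controls was the highest in both, but the part of neutrophils in *Mmp9* was not tested.

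*Mmp2*, which is activated at the cell surface by MMP14 together with TIMP2, showed values that moved apart between the lines without passing the test. Its mean was 242 CPM in control and 351 CPM in GC-treated parental tumors, against 232 and 152 CPM in GR KO tumors. The log2 fold changes of 0.54 and -0.61 had adjusted p from edgeR of 0.226 and 0.0710. Their difference, 1.14 (SE 0.29), had an adjusted p from edgeR of 0.0820. DESeq2 called it, and edgeR did without parental GC tumor 1 (1.27, adjusted p = 0.0443) or GR KO control tumor 4 (1.20, adjusted p = 0.0244), with a range of 0.0244 to 0.169 over the 20 such fits. The GR KO effect was called by DESeq2 and by edgeR without GR KO control tumor 4 (-0.66, adjusted p = 0.0352, over the 10 such fits 0.0352 to 0.170).

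The stromelysins digest many matrix proteins and, in the case of *Mmp3*, activate other MMPs. Among control tumors, *Mmp3* was higher in the GR KO line than in the parental line, 357 against 133 CPM on average, a log2 fold change of 1.43 (SE 0.22, n = 5 against 5, adjusted p from edgeR = 0.00212) with every GR KO tumor above every parental one. With GC, its log2 fold change was 0.15 in parental and -0.68 in GR KO tumors, not called in either by edgeR (adjusted p = 0.806 and 0.0557). DESeq2 called it in GR KO tumors, and edgeR did with the size factors of DESeq2 and with at least 10 counts in each tumor. It was also called by edgeR without GR KO control tumor 4 (adjusted p = 0.0415), GR KO control tumor 5 (0.0339) or GR KO GC tumor 1 (0.0399), with a range of 0.0339 to 0.157 over the 10 such fits.

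*Mmp11*, a stromelysin that furin activates inside the cell and that is known from the fibroblasts of carcinomas, had 18.2, 42.9, 30.4, 18.6 and 50.002 CPM in parental control tumors and 17.7, 27.2, 32.2, 14.5 and 40.8 CPM in parental GC tumors. The GR KO line had 13.0, 6.33, 19.95, 17.995 and 10.0 CPM in control and 51.1, 29.3, 49.5, 17.1 and 45.9 CPM with GC. In the GR KO line 4 of 5 GC-treated tumors were above every control and GC tumor 4 lay among the controls, while the parental groups overlapped throughout. *Mmp11* rose in GR KO tumors by a log2 fold change of 1.52 (SE 0.37, adjusted p from edgeR = 0.0177). The call was lost without GR KO control tumor 2 (1.34, adjusted p = 0.0504) and without GR KO GC tumor 3 (1.42, adjusted p = 0.0591), and over the 10 such fits the adjusted p ran from 0.00924 to 0.0591. In parental tumors its log2 fold change was -0.28, and the difference of -1.79 (SE 0.51) was not called by edgeR (adjusted p = 0.0970). It was called by DESeq2, and by edgeR without GR KO control tumor 4 (-1.92, adjusted p = 0.0341, over the 20 such fits 0.0341 to 0.198).

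In cultures, *Mmp11* had 22.2, 15.0 and 19.4 CPM in parental cells with DMSO, 16.8 and 16.0 CPM with GC, 26.9, 26.6 and 25.3 CPM in GR KO cells with DMSO and 23.7, 23.7 and 21.6 CPM with GC. It was not called with GC in either line, and DMSO-treated GR KO cultures lay above every parental one. In tumors, the summed fibroblast markers given before were lowest in GC tumor 4 of the GC-treated GR KO group, as *Mmp11* was, and the part of fibroblasts was not tested.

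The macrophage metalloelastase *Mmp12*, which digests elastin, was not called with GC by edgeR, and DESeq2 called it in GR KO tumors. Its means were 20.6 CPM in control and 7.94 CPM in GC-treated parental tumors and 13.0 and 5.37 CPM in GR KO tumors. The log2 fold changes were -1.38 and -1.28 (adjusted p from edgeR = 0.209 and 0.121). Macrophage markers, led by *C1qa*, summed to 3762 to 5273 CPM in parental control and 3476 to 8512 CPM in parental GC tumors, and to 5643 to 9087 and 4493 to 7692 CPM in GR KO tumors, so the ranges overlapped in both lines. In the GR KO line only GC tumor 2, at 7692 CPM, reached the range of the controls, the other 4 had 4493 to 5074 CPM, and the macrophage marker *Mrc1* was called higher with GC. GR KO control tumor 4 held 32.2 CPM of *Mmp12* against 5.62 to 10.5 CPM in the others of its group. Without it the control mean was 8.25 CPM and the log2 fold change -0.61 (adjusted p from edgeR = 0.388, over the 10 such fits 0.110 to 0.388). *Mmp12* had no count in any culture.

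Of the 6 membrane-type MMPs, which work at the cell surface, 5 were tested in tumors and 0 were called by edgeR with GC in either line. At an unadjusted p under 0.05 there were 0 in parental and 3 in GR KO tumors, against 14.1% and 24.5% of all genes, and DESeq2 called none of them in either. *Mmp14*, the activator of MMP2 and itself a collagenase, ranged from 233 to 846 CPM over all tumors and from 204 to 346 CPM over all cultures. Its log2 fold change with GC was -0.39 in parental and 0.65 in GR KO tumors (adjusted p from edgeR = 0.498 and 0.110). The GR KO effect on *Mmp14* was called without GR KO control tumor 4 (adjusted p = 0.0150) or GR KO GC tumor 4 (0.0468), with a range of 0.0150 to 0.304 over the 10 such fits. Its difference between the lines was called without GR KO control tumor 4 (-1.30, adjusted p from edgeR = 0.0271, over the 20 such fits 0.0271 to 0.227).

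*Mmp16*, another of them, was not called with GC, except in GR KO tumors without GR KO control tumor 5 (0.95, adjusted p from edgeR = 0.0416, over the 10 such fits 0.0416 to 0.188). *Mmp16* was higher in GR KO than in parental cells with DMSO, 14.2 against 8.003 CPM, a log2 fold change of 0.83 (SE 0.19, adjusted p from edgeR = 0.0207). That call was lost without parental DMSO culture 2 (adjusted p = 0.0588), GR KO DMSO culture 1 (0.0571) or GR KO DMSO culture 2 (0.0920), with a range of 0.0376 to 0.0920 over the 6 such fits.

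*Mmp19* had 8.003, 5.85 and 8.46 CPM in parental cells with DMSO and 25.0 and 21.9 CPM with GC. In GR KO cells it was near the floor, at 0.519, 0.811 and 0.538 CPM with DMSO and 0.228, 0.520 and 0.568 CPM with GC. Both GC-treated parental cultures lay far above the 3 DMSO cultures, and every GR KO culture lay below every parental one. *Mmp19* rose with GC in parental cells by a log2 fold change of 1.65 (SE 0.30, adjusted p from edgeR = 0.0251). With so few cultures the call was lost in each fit without 1 of them: the adjusted p was 0.0960, 0.0715 and 0.0787 without parental DMSO culture 1, 2 or 3 and 0.328 and 0.174 without parental GC culture 1 or 2. The log2 fold change stayed between 1.50 and 1.76 in those fits. The call was also lost with the replicate number as a block (1.72, adjusted p from edgeR = 0.0805). The difference from GR KO cells, 2.16 (SE 0.48), was not called by edgeR (adjusted p = 0.141) and was called by DESeq2.

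Without the drug, GR KO cells held less *Mmp19* than parental cells by a log2 fold change of -3.56 (SE 0.33, adjusted p from edgeR = 6.24e-05), and this call held without any 1 of the 6 cultures. In tumors *Mmp19* had 33.5, 47.7, 62.5, 52.1 and 42.8 CPM in parental control and 71.0, 42.9, 73.6, 47.0 and 63.7 CPM in parental GC tumors. GR KO tumors held 25.1, 38.4, 41.1, 77.8 and 61.4 CPM in control and 60.6, 46.0, 48.4, 44.5 and 62.7 CPM with GC. All 4 groups of tumors overlapped, and *Mmp19* was called neither with GC nor between the lines there.

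*Mmp23*, a short MMP held in the membrane, was the member with the smallest adjusted p in the test of the difference between tumors. In parental tumors it had 52.2, 37.1, 49.9, 43.6 and 45.3 CPM in control and 48.5, 139.8, 49.8, 128 and 58.4 CPM with GC, so that GC tumors 2 and 4 stood high and the other 3 lay near the controls. Among GR KO tumors it had 173, 167, 129, 69.7 and 131 CPM in control and 59.4, 83.9, 53.2, 99.9 and 44.2 CPM with GC, with control tumor 4 among the GC-treated ones. The log2 fold changes of 0.90 and -0.98 were not called (adjusted p from edgeR = 0.181 and 0.0522). In GR KO tumors *Mmp23* was called by DESeq2, by edgeR with the size factors of DESeq2, without the filter, with at least 10 counts in each tumor and with the replicate block, and not with the compared groups alone. It was also called there without GR KO control tumor 4 (-1.13, adjusted p = 0.0130) or GR KO GC tumor 4 (-1.16, adjusted p = 0.0305), with a range of 0.0130 to 0.137 over the 10 such fits. The difference between the lines was 1.87 (SE 0.43, adjusted p from edgeR = 0.0626). DESeq2 called it, and edgeR did without GR KO control tumor 4 (adjusted p = 0.0157), parental GC tumor 1 (0.0360) or parental GC tumor 3 (0.0370), with a range of 0.0157 to 0.149 over the 20 such fits. This difference was also called by edgeR without the filter, with at least 10 counts in each tumor and with the replicate block, and not with the size factors of DESeq2. Parental GC tumors 2 and 4 also had the highest macrophage sums (8180 and 8512 CPM) and lowest fibroblast sums (8305 and 7705 CPM) of their group. The part of those cells in *Mmp23* was not tested. 

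Between the control tumors *Mmp23* was higher in GR KO, 134 against 45.6 CPM, a log2 fold change of 1.55 (SE 0.31, adjusted p from edgeR = 0.0152) with no overlap.

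Of the 7 proteoglycan-cutting ADAMTS enzymes, *Adamts1* carried the results. It had 89.5, 90.8, 107, 90.4 and 75.3 CPM in parental control tumors and 209, 130.4, 271, 235 and 161 CPM in parental GC tumors. Its GR KO values were 22.7, 28.0, 22.7, 25.9 and 20.5 CPM in control and 68.4, 77.8, 66.6, 85.6 and 89.8 CPM with GC. Every GC-treated tumor lay above every control of its line, and the GR KO control tumors formed a tight group far below the parental controls. The rise had a log2 fold change of 1.15 (SE 0.19) in parental and 1.70 (SE 0.19) in GR KO tumors, with an adjusted p from edgeR of 0.00273 and 3.3e-05. Both calls held without any 1 tumor, and the difference between the effects, -0.54 (SE 0.26), was not called (adjusted p from edgeR = 0.247). Between control tumors *Adamts1* was lower in GR KO by a log2 fold change of -1.92 (SE 0.19, adjusted p from edgeR = 8.2e-06), which also held without any 1 of the 10 tumors.

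In cultures, *Adamts1* had 21.1, 14.904 and 20.8 CPM in parental cells with DMSO and 75.7 and 68.6 CPM with GC. GR KO cells had 23.0, 25.2 and 24.0 CPM with DMSO and 26.02, 25.95 and 20.95 CPM with GC. The GC-treated parental cultures stood clear of every other culture, and the GR KO groups overlapped. The log2 fold change was 1.93 (SE 0.18, adjusted p from edgeR = 0.000234) in parental and 0.02 in GR KO cells. Their difference of 1.91 (SE 0.24) was called (adjusted p from edgeR = 0.00502), and the calls in parental cells and of the difference held without any 1 culture, with an adjusted p up to 0.00528 and 0.0476. Between the lines with DMSO the log2 fold change was 0.34 and was not called (adjusted p from edgeR = 0.224), unlike between the control tumors. Whether the difference between the lines was larger in tumors than in cultures was not tested.

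The other aggrecan- and versican-cutting members were not called with GC. In tumors, *Adamts4* ranged from 42.8 to 101 CPM, *Adamts5* from 9.90 to 23.8 CPM, *Adamts8* from 6.28 to 31.2 CPM, *Adamts9* from 1.71 to 15.2 CPM and *Adamts15* from 5.30 to 19.8 CPM. With DMSO, GR KO cells held less *Adamts4* than parental cells, 2.93 against 11.9 CPM, a log2 fold change of -2.02 (SE 0.42, adjusted p from edgeR = 0.0108) with no overlap. That call was lost without GR KO DMSO culture 2 (-1.98, adjusted p = 0.0524), the highest of the 6 fits without 1 culture, whose lowest was 0.0112.

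Of the 3 enzymes that remove the amino-terminal propeptide of fibrillar procollagens, *Adamts2* had a mean of 129 CPM in control and 195 CPM in GC-treated parental tumors and of 96.1 and 135 CPM in GR KO tumors. All 5 GC-treated parental tumors were above every parental control and 4 of 5 in the GR KO line. The log2 fold changes of 0.59 and 0.49 were not called by edgeR (adjusted p = 0.113 and 0.0835), while DESeq2 called *Adamts2* in parental tumors only. *Adamts14* was below every control in all 5 GC-treated GR KO tumors, 27.6 against 47.5 CPM, and its log2 fold change of -0.78 was not called by edgeR either (adjusted p = 0.0574). DESeq2 called it, and edgeR did without GR KO control tumor 4 (adjusted p = 0.0273) or GR KO GC tumor 4 (0.0413), with a range of 0.0273 to 0.165 over the 10 such fits. In DMSO-treated cells *Adamts2* was nearly lost from the GR KO line, at 0.455 against 13.6 CPM, a log2 fold change of -4.85 (SE 0.54, adjusted p from edgeR = 0.00025) that held without any 1 culture.

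The 9 other ADAMTS enzymes include *Adamts10*, which binds fibrillin microfibrils, and *Adamts7* and *Adamts12*, which cut cartilage oligomeric matrix protein. Of the 6 tested in tumors edgeR called 0 with GC in either line, with 2 in parental and 1 in GR KO tumors at an unadjusted p under 0.05 (14.1% and 24.5% of all genes) and none called by DESeq2. *Adamts12* had a mean of 4.77 CPM in control and 10.53 CPM in GC-treated parental tumors, with all 5 above every control and parental GC tumor 2 highest at 17.1 CPM. Its log2 fold change of 1.14 had an adjusted p from edgeR of 0.223. The difference between the lines was called by DESeq2, and by edgeR without GR KO control tumor 4 (2.00, adjusted p = 0.0309, over the 20 such fits 0.0309 to 0.243). *Adamts10* was called in GR KO tumors without GR KO control tumor 3 (0.94, adjusted p from edgeR = 0.0335, over the 10 such fits 0.0335 to 0.193). *Adamts7* reached 25.0 CPM in GR KO control tumor 3 against 2.45 to 6.96 CPM in the others of its group.

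Among the inhibitors, *Timp1*, an inducible inhibitor that also binds the precursor of MMP9, had 281, 349, 351, 375 and 617 CPM in parental control tumors and 237, 215, 313, 207 and 238 CPM in parental GC tumors. For GR KO tumors the values were 696, 432, 744, 534 and 547 CPM in control and 360.2, 276, 287, 269 and 300.3 CPM with GC. All GC-treated GR KO tumors lay below every GR KO control, and in the parental line GC tumor 3 lay among the controls while control tumor 5 stood above them. *Timp1* fell in GR KO tumors by a log2 fold change of -0.99 (SE 0.21, adjusted p from edgeR = 0.00797), and this held without any 1 tumor, with an adjusted p up to 0.0295. In parental tumors the log2 fold change of -0.71 (SE 0.20) was not called by edgeR (adjusted p = 0.114) and was called by DESeq2. The difference of 0.28 between the lines was not called (adjusted p from edgeR = 0.614). The same control tumor 5 was also highest in the neutrophil sum and, at 2829 CPM against 860.0 to 1297 CPM, in the sum of keratinocyte markers, led by *Krt14*. In GR KO tumors, keratinocyte sums were 2952, 3669, 2990, 1386 and 1793 CPM in control and 776, 949.8, 1387, 1587 and 1417 CPM with GC, with *Krt14* lower and *Krt1* and *Krt10* higher among the 6 markers. T and NK cell sums, led by *Cd3d* in control, were 103.5, 162, 109.5, 165.5 and 86.3 CPM against 59.7, 96.1, 78.9, 55.0 and 50.4 CPM there, with 1 of 6 lower. The part of those cells in *Timp1* was not tested.

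In cultures, *Timp1* had 521, 528 and 485 CPM in parental cells with DMSO, 439 and 433 CPM with GC, 416, 359 and 422 CPM in GR KO cells with DMSO and 409.5, 426 and 424 CPM with GC. The parental GC cultures lay just below the DMSO ones and the GR KO groups were close together, and neither effect was called (log2 fold change -0.23 and 0.07).

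*Timp3*, which stays bound to the matrix and also inhibits several ADAMTS enzymes and sheddases, had 559, 447, 468, 586 and 436 CPM in parental control tumors and 654, 1558, 1119.7, 877 and 965 CPM in parental GC tumors. GR KO tumors held 349.9, 499.9, 339, 348 and 459.5 CPM in control and 324, 428, 326, 484 and 348 CPM with GC. The parental groups did not overlap, with GC tumor 2 highest and GC tumor 1 nearest to the controls, while the GR KO groups were intermixed. In parental tumors *Timp3* rose by a log2 fold change of 1.05 (SE 0.21, adjusted p from edgeR = 0.0128), and the call held without any 1 tumor, with an adjusted p up to 0.0475. The GR KO log2 fold change was -0.06 (adjusted p from edgeR = 0.883). The difference between them, 1.12 (SE 0.30), missed the threshold (adjusted p from edgeR = 0.0843). It was called by DESeq2, and by edgeR without GR KO control tumor 4 (1.16, adjusted p = 0.0278, over the 20 such fits 0.0278 to 0.169).

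In cultures the direction of *Timp3* was the opposite one. Parental cells had 469.8, 519.9 and 499 CPM with DMSO and 223 and 252 CPM with GC, and GR KO cells had 355, 363 and 366 CPM with DMSO and 325, 389 and 416 CPM with GC. Both GC-treated parental cultures were the lowest of all 11, and GR KO cultures did not separate by treatment. *Timp3* fell in parental cells by a log2 fold change of -1.06 (SE 0.14, adjusted p from edgeR = 0.00359), a call that was lost without parental GC culture 1 (-0.98, adjusted p = 0.0892, the highest of the 5 such fits, the lowest being 0.00691). Whether its effects in tumors and in cultures differ was not tested, and the kind of sample and the experiment cannot be told apart.

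The difference of the *Timp3* effects between parental and GR KO cells was -1.12 (SE 0.18, adjusted p from edgeR = 0.0322). This call was lost with the replicate number as a block (-1.09, adjusted p from edgeR = 0.0606). It was lost without parental DMSO culture 1 or 3 (adjusted p = 0.0752 and 0.0801), parental GC culture 1 or 2 (0.267 and 0.142), GR KO DMSO culture 1, 2 or 3 (0.0964, 0.104 and 0.101) or GR KO GC culture 2 or 3 (0.121 and 0.0726). Over all 11 such fits the adjusted p ran from 0.00776 to 0.267 and the difference from -1.22 to -1.04.

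*Timp4*, an inhibitor with a narrow range of tissues such as heart and fat, was counted at the edge of detection. It had 0, 3, 2, 6 and 0 counts in parental control tumors and 50, 30, 31, 51 and 34 counts in parental GC tumors. GR KO tumors held 0, 0, 0, 5 and 0 counts in control and 29, 12, 42, 11 and 1 with GC. All parental GC tumors lay above every parental control, and in the GR KO line 4 of 5 did, with GC tumor 5 at 1 count. Pooled over each group, the ratio with GC was 18.2 in parental tumors (95% counting interval 9.95 to 37.1, from 196 and 11 counts) and 15.9 in GR KO tumors (6.58 to 50.1, from 95 and 5 counts). All 5 of those control counts were in GR KO control tumor 4, and without it the group had none. Both intervals cover counting error only and not the spread between tumors. *Timp4* was called by edgeR in GR KO tumors (adjusted p = 0.0482) and not in parental tumors (adjusted p = 0.123), and the difference was not called (adjusted p from edgeR = 0.979). With only the compared groups in the fit these calls were reversed: it was called in parental tumors and not in GR KO tumors (adjusted p = 0.146, over its 4 alternatives 0.0477 to 0.146).

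The call of *Timp4* in GR KO tumors did not hold in 8 of the 10 fits without 1 tumor. The adjusted p was 0.0988, 0.101, 0.0802 and 0.0807 without GR KO control tumor 1, 2, 3 or 5 and 0.0951, 0.0519, 0.130 and 0.0554 without GR KO GC tumor 1, 2, 3 or 5, with a range of 0.0096 to 0.130 over all 10 and a log2 fold change of 3.63 to 7.12. In cultures *Timp4* had 1 count in each of the 2 parental GC cultures and none in the other 9. Adipocyte markers, led by *Adipoq*, summed to 23.9 to 40.3 CPM in parental control and 27.0 to 38.2 CPM in parental GC tumors and to 9.75 to 48 and 12.5 to 20.2 CPM in GR KO tumors. The 48 CPM was in GR KO control tumor 4, which also held the counts of *Timp4* in its group, and the other 4 controls had 9.75 to 17.6 CPM. Of these markers, 0 of 4 were called with GC in either line.

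*Timp2*, which takes part in the activation of MMP2, had a wide spread and was not called by edgeR in any comparison of all samples. It was called between the control tumors without GR KO control tumor 4 (log2 fold change 1.09, adjusted p = 0.0296, over the 10 such fits 0.0296 to 0.422). It ranged from 1173 to 6789 CPM over all tumors and from 2693 to 8219 CPM over all cultures. Its log2 fold change with GC was 0.50 in parental and -0.52 in GR KO tumors (adjusted p from edgeR = 0.562 and 0.394).

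**Figure D2:**
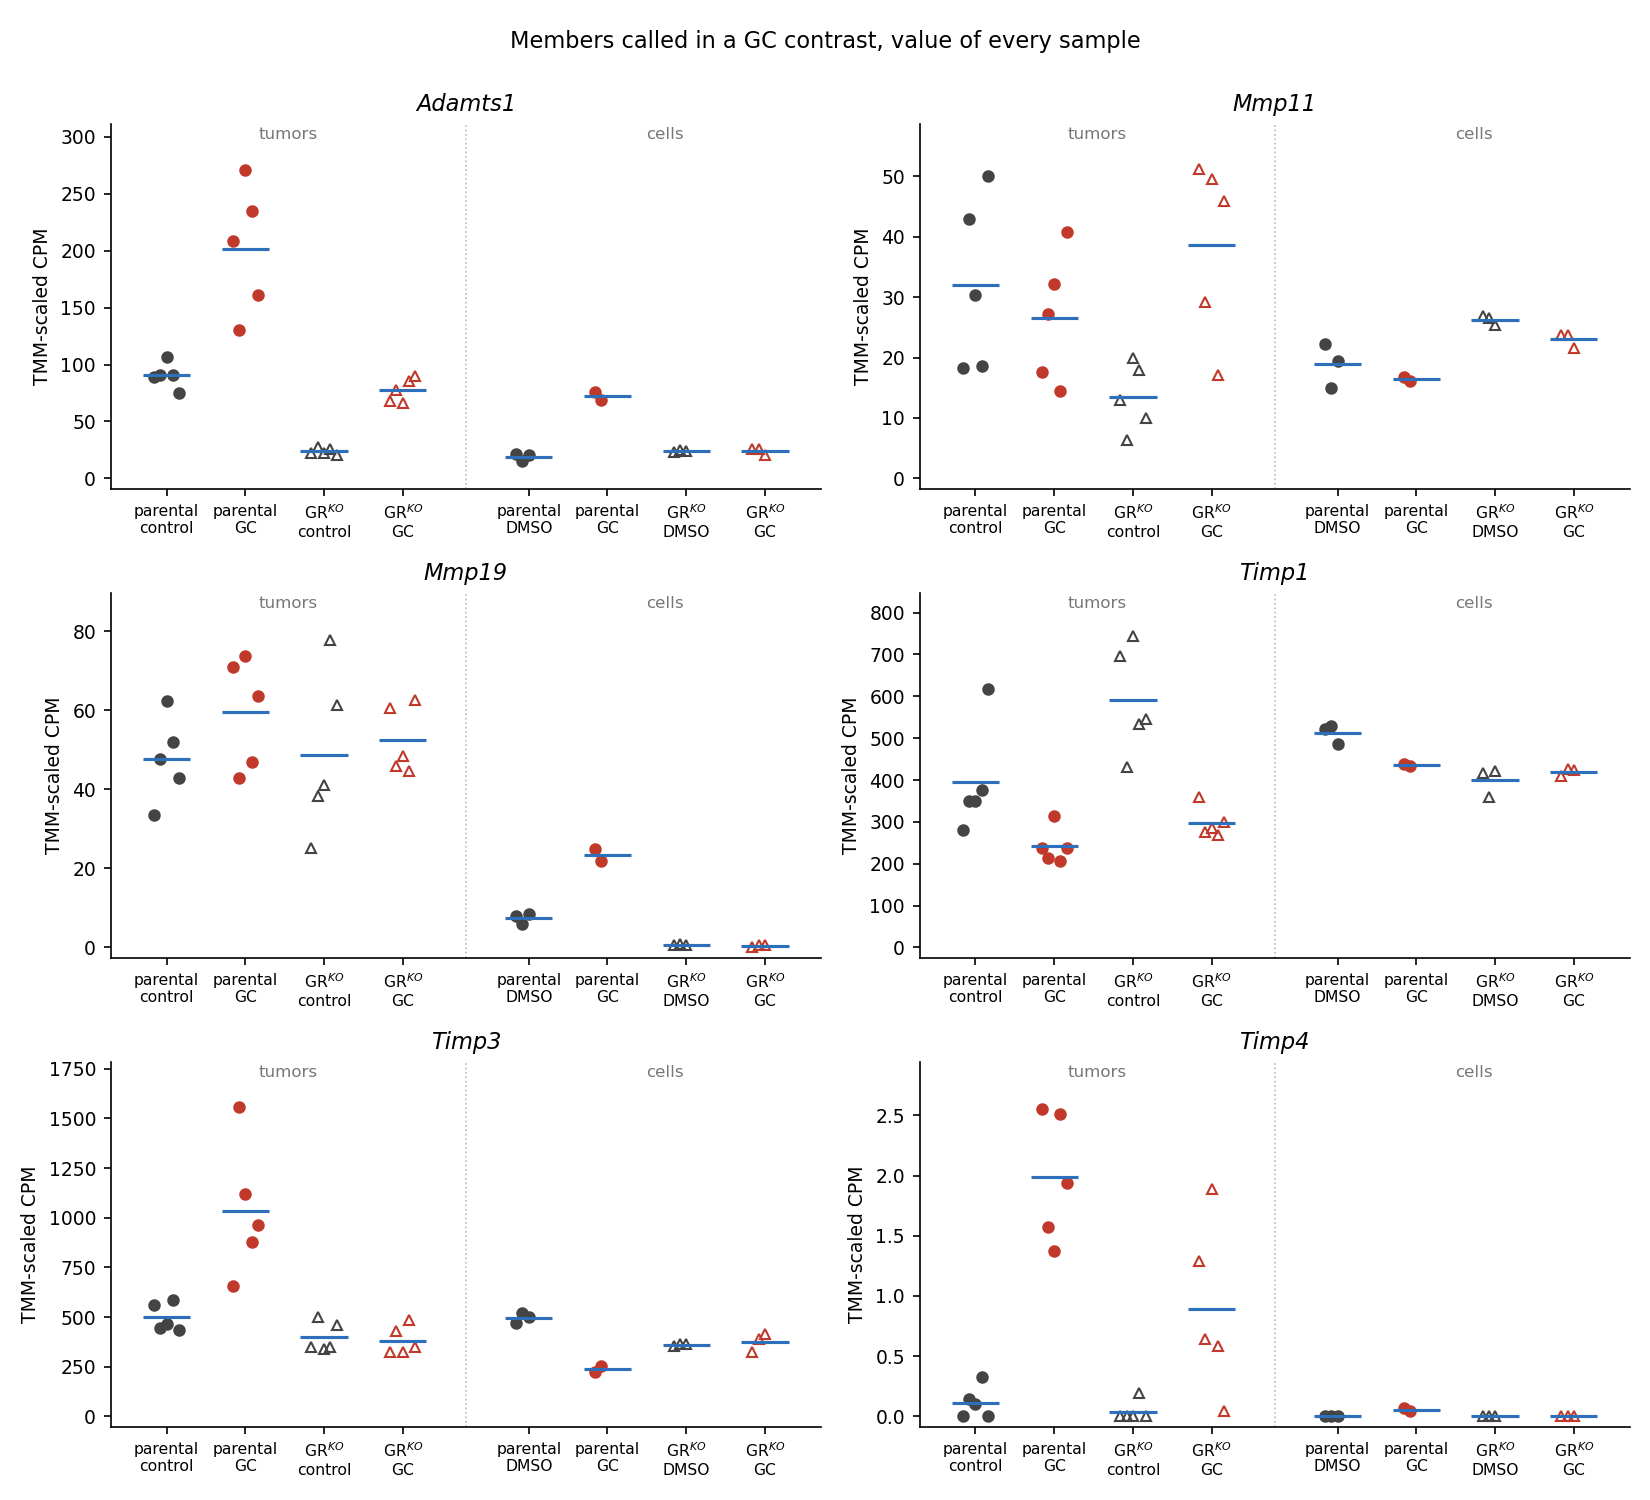
TMM-scaled CPM (y axis, from 0) of the 6 members called in a GC contrast, with 1 point per tumor or culture, circles for parental and triangles for GR KO, grey for control or DMSO, red for GC and a blue line at each group mean. *Adamts1* rises with GC in both kinds of tumor and in parental cells, where it goes from a mean of 19.0 to 72.1 CPM, while *Timp3* goes from 499 to 1035 CPM in parental tumors and from 496 to 238 CPM in parental cells.

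Between the lines without the drug, 3 of 37 members were called in control tumors (8.11%, against 2.25% of all genes): *Adamts1* was lower and *Mmp3* and *Mmp23* were higher in GR KO. The median log2 fold change was -0.06 over the members and -0.04 over all genes. All 3 calls held without any 1 tumor. The count was 7 without GR KO control tumor 4, adding *Adamts12*, *Mmp11*, *Mmp14* and *Timp2*, with 11.1% of all genes called in that fit. It was 4 without parental control tumor 1, adding *Mmp9* (1.02% of all genes), or 5, adding *Timp1* (1.27% of all genes). DESeq2 called 6 (16.2%, against 6.31% of all genes). Fibroblast markers, with sums of 3574 to 6520 CPM in GR KO against 6682 to 7385 CPM in parental control tumors, did not overlap between the lines either (1 of 7 lower, *Col3a1*), and neither did endothelial markers (90.2 to 108 against 48.4 to 72.0 CPM, 1 of 6 higher) or mural cell markers (924.5 to 1249 against 478 to 785 CPM, led by *Acta2*, 1 of 5 higher). Macrophage sums did not overlap either, at 5643 to 9087 CPM in GR KO and 3762 to 5273 CPM in parental control tumors, with 0 of 7 markers called. Of the T and NK cell markers 1 of 6 was higher, *Ncr1*, and of the keratinocyte markers 1 of 6 was lower, *Krt1*, while the keratinocyte sums were 1386 to 3669 CPM in GR KO and 860 to 2829 CPM in parental tumors. The part of these cells was not tested.

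In DMSO-treated cells 5 of 22 members were called between the lines (22.7%, against 8.22% of all genes), 4 lower and 1 higher in GR KO. *Mmp2* had 154, 144 and 137 CPM in parental and 5.14, 2.58 and 7.32 CPM in GR KO cells, so the groups lay far apart. Its log2 fold change was -4.86 (SE 0.30, adjusted p from edgeR = 2.83e-06), and with *Mmp19* and *Adamts2* it kept its call without any 1 culture. The count fell to 3 without GR KO DMSO culture 2, where *Adamts4* and *Mmp16* were lost. The median log2 fold change was -0.51 over the members and 0.01 over all genes. *Timp3* had an adjusted p from edgeR of 0.0373 with a log2 fold change of -0.46, under the fold asked for. Of the markers, 3 of 5 tested for fibroblasts, the only 1 tested for melanocytes (*Mitf*) and 1 of 3 for mural cells were lower in GR KO cells. The fibroblast markers summed to 70.4 to 85.3 CPM in GR KO and 172 to 283 CPM in parental cells, and their part in the members was not tested.

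Whole tumors were then set against cultured cells of the same line to see which members the cultures lack. The levels and folds of this comparison are on a joint scaling of all 31 samples, and the kind of sample and the experiment cannot be told apart. In the parental line 24 of 37 members (64.9%) were higher in control tumors and 0 lower, against 30.4% higher and 16.2% lower of all 16273 genes tested (46.7% called). In the GR KO line 23 members (62.2%) were higher and 1 lower, against 34.2% higher and 20.6% lower of all genes (54.8% called). Of these 37, 15 passed the filter in tumors only, which favors higher values there, and 13 of the 15 were called in the parental (86.7%, against 60.5% of all 3641 such genes) and 11 in the GR KO line (73.3%, against 64.4%). Among the 22 that passed in tumors and in cultures, 11 were called in the parental line, all higher in tumors (50%, against 22.4% of all 12278 such genes). In the GR KO line 12 of the 22 were higher (54.5%, against 26.2%) and 1 lower. In either direction, 50% and 59.1% of these 22 were called, against 43% and 52.3% of such genes. Their median log2 fold change was 0.90 in the parental and 1.16 in the GR KO line, against 0.02 and -0.08 over such genes.

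Several members were near or at 0 in cells of both lines. *Mmp13* had no count in DMSO-treated cells of either line and was at least 229-fold higher in parental and at least 218-fold higher in GR KO control tumors, taking 3 counts per library as the floor. By the same floor *Mmp12* was at least 108-fold and at least 84.5-fold higher, and *Adamts15* at least 41.0-fold and at least 59.9-fold higher. Without GR KO control tumor 4 the GR KO bounds were 128-fold for *Mmp13*, 51.7-fold for *Mmp12* and 49.2-fold for *Adamts15*. *Mmp9* had a mean of 445 CPM in parental tumors against 0.131 CPM in the cells, and *Mmp3* had 131 against 0.720 CPM. Macrophage markers summed to 1.04 to 4.00 CPM and neutrophil markers to 0 to 0.162 CPM in cultures, with *Adgre1*, *Ly6g* and all 6 T and NK cell markers at 0, and the part of these cells in the levels of the members was not tested.

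Other members had the following values in each line. *Mmp2* was 45.0-fold higher in GR KO tumors than in GR KO cells (231 against 5.14 CPM, log2 fold change 5.49, SE 0.31, adjusted p from edgeR = 2.47e-15) and 1.62-fold higher in the parental line (239 against 148 CPM, adjusted p from edgeR = 0.0154). The parental call was lost without parental control tumor 5 or DMSO culture 3, with an adjusted p up to 0.0654 over the 8 such fits and down to 0.0140. *Adamts2* (96.2 against 0.468 CPM) and *Mmp19* (49.2 against 0.640 CPM) were likewise near 0 in GR KO cells and well counted in GR KO tumors.

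*Adamts1* was 4.64-fold higher in parental control tumors than in parental cells (adjusted p from edgeR = 5.63e-10) and stood at 24.0 against 24.7 CPM in the GR KO line (log2 fold change -0.04, adjusted p = 0.873). *Mmp11* was the member that was lower in GR KO tumors than in GR KO cells, 13.6 against 27.0 CPM (log2 fold change -0.99, SE 0.36, adjusted p from edgeR = 0.0215), and this was lost without GR KO control tumor 2 or DMSO culture 1, with an adjusted p of 0.0096 to 0.0599 over the 8 such fits. The difference between the lines in these folds was not tested. For the TIMPs, edgeR called 0 of 4 in either line, 3 in the parental and 1 in the GR KO line had an unadjusted p under 0.05 (54.8% and 61.5% of all genes), and DESeq2 called *Timp1* in the GR KO line. In the parental line *Timp2* was called lower in tumors by edgeR with the compared groups alone and without parental control tumor 1. Without parental control tumor 5, *Timp1* was called lower and *Timp4* higher. The fits without tumor 1 and without tumor 5 called 25 and 24 members, with 1 lower in each. In the GR KO line *Timp1* was called higher in tumors by edgeR without GR KO control tumor 2, with the size factors of DESeq2 and with at least 10 counts in each sample.

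**Figure D3:**
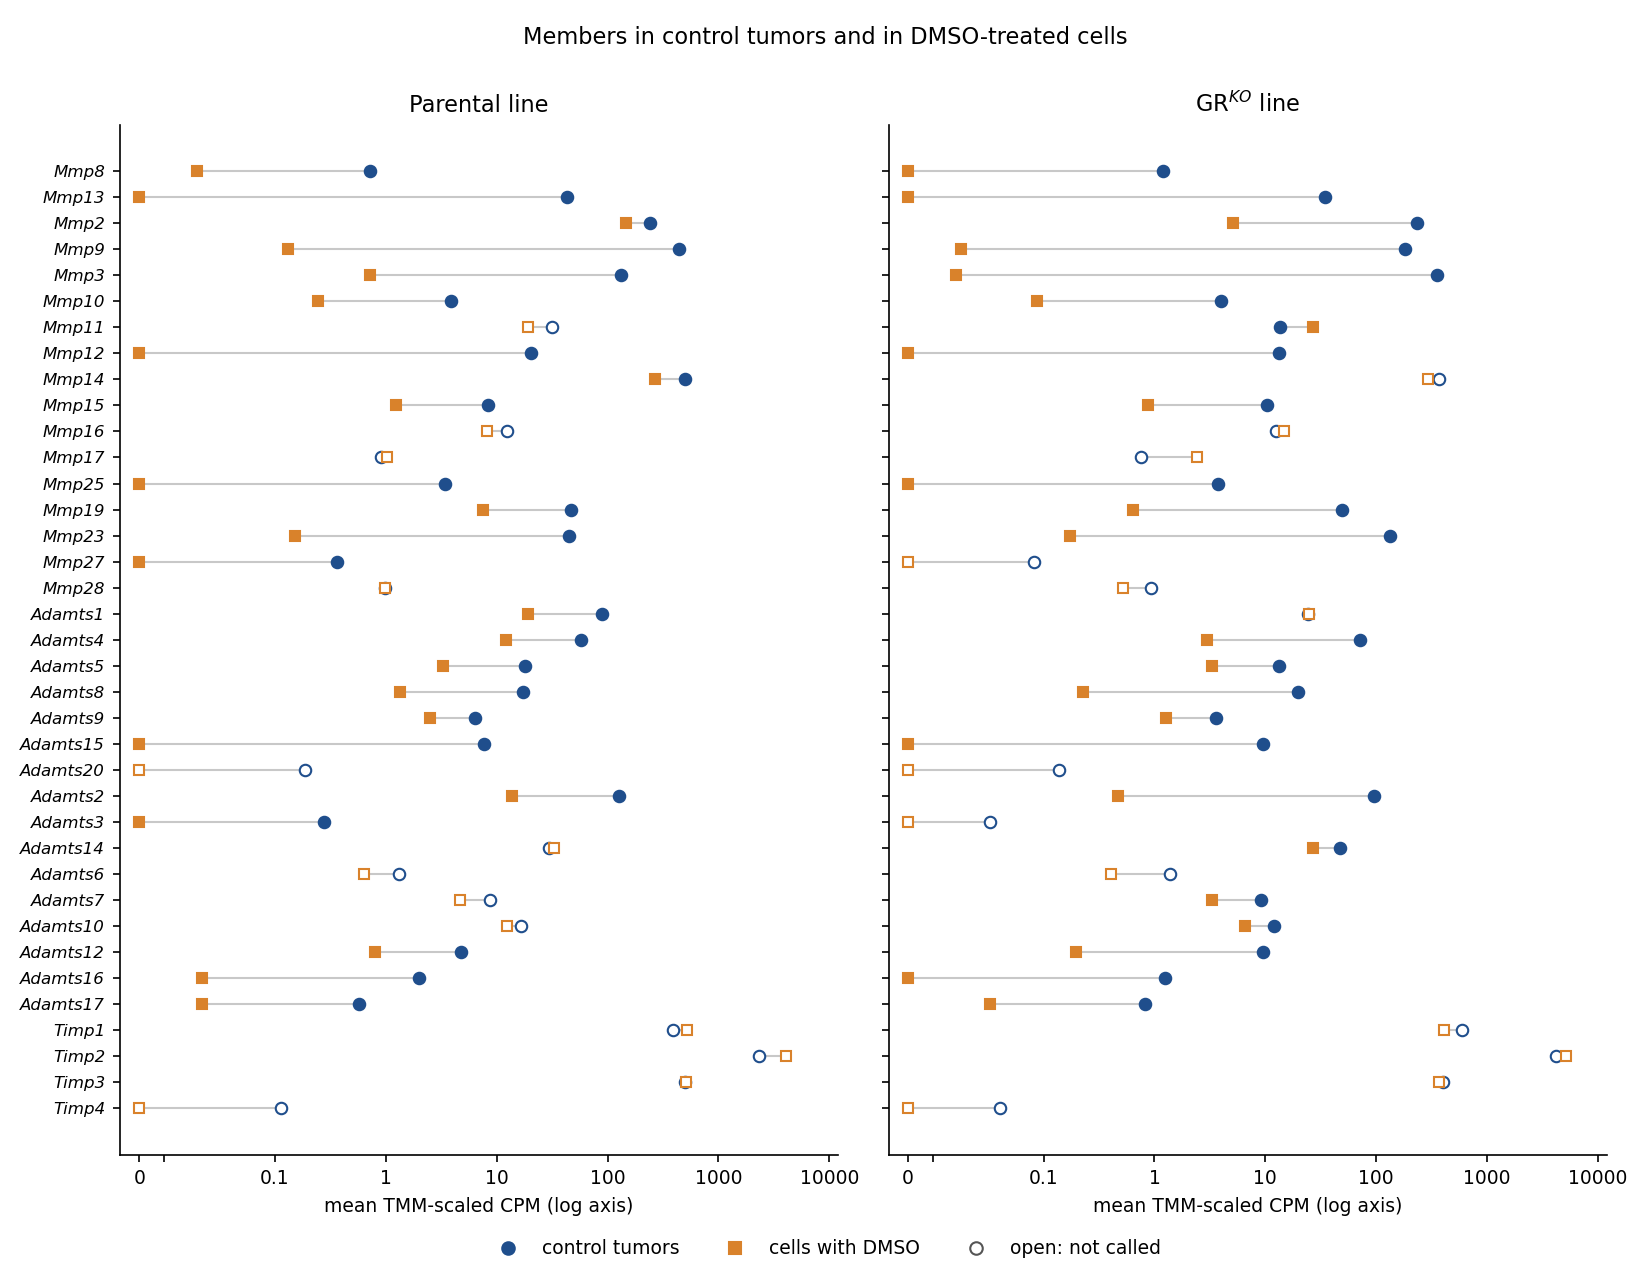
Mean TMM-scaled CPM (log x axis, with means of 0 drawn at the left edge) of the 37 members tested in control tumors (circles) and DMSO-treated cells (squares), for the parental line on the left and the GR KO line on the right. Filled symbols were called by edgeR, 24 in each line, and *Mmp13*, *Mmp12* and *Adamts15* sit at 0 in the cells of both.

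Other genes of the same proteolytic system were read from a list of 39 genes, with the plasminogen system, ADAM sheddases, ADAMTS-like proteins, regulators, cathepsins and matrix substrates. With GC, 1 of 34 tested was called in parental tumors, against 0.779% of all genes. It was *Ctsl*, a lysosomal protease (log2 fold change -1.06, adjusted p from edgeR = 0.0457). In GR KO tumors 1 of 34 was called, a smaller share than the 6.42% of all genes. It was *Plat*, the tissue plasminogen activator (log2 fold change 1.42, adjusted p from edgeR = 0.0425). The difference between these tumors was called for 0 of 34 by edgeR, against 0.195% of all genes. Between the control tumors 1 of 34 was called, against 2.25% of all genes. It was *Fn1*, the fibronectin gene, lower in GR KO (-0.75, adjusted p from edgeR = 0.0293).

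In parental cells 2 of 26 were called with GC, both higher, against 0.878% of all genes. *Adam12*, a membrane-bound sheddase, went from 8.64 to 63.6 CPM (log2 fold change 2.88, adjusted p from edgeR = 0.000167), and the versican gene *Vcan*, whose product ADAMTS1 cuts, had a log2 fold change of 0.75 (adjusted p from edgeR = 0.0275). In GR KO cells edgeR called 0 of 26 and 0% of all genes. The difference was called for 1 of 26, *Adam12* (2.79, adjusted p from edgeR = 0.00339), against 0.295% of all genes. Between DMSO-treated lines *Adam12* was higher in GR KO (1.14), and *Serpine2*, *Adam8*, *Adamtsl1* and *Dcn* were lower, while 8.22% of all genes were called. Leaving out samples was not run for these genes.

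All 46 members have a position in GENCODE M21, on the assembly GRCm38. A run of 10 MMP genes (*Mmp13*, *Mmp12*, *Mmp1b*, *Mmp3*, *Mmp1a*, *Mmp10*, *Mmp8*, *Mmp27*, *Mmp20* and *Mmp7*) lies at chr9:7272514-7699585, and their levels ranged from a mean of 357 CPM of *Mmp3* in GR KO control tumors to no count of *Mmp7* and *Mmp20* in any sample. *Adamts1* (ENSMUSG00000022893, chr16:85793827-85803113, minus strand) and *Adamts5* lie side by side at chr16:85793827-85901828, and of this pair *Adamts1* was called with GC and *Adamts5* was not. *Timp3* (ENSMUSG00000020044, chr10:86300372-86349506, plus strand) shares exonic bases with *Syn3* on the other strand. *Timp4* does so with *Syn2*, *Mmp11* with *Chchd10* and *Mmp19* with *Tmem198b* and *Gm47093*. No strand setting of the counting was named, and the paper says only that defaults were used where nothing was specified. Reads of these overlapping genes cannot be told apart here. *Timp1* (ENSMUSG00000001131, chrX:20870166-20874735, plus strand) lies inside *Syn1* without sharing exons, and *Adamts1* overlaps no other gene.

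The promoters of *Adamts1*, *Timp3* and *Timp1* are shown because these 3 members were called in the most GC contrasts or with the smallest adjusted p. The sequences are from RefSeq on the build GRCm38.p6, 300 bases each from 250 before to 50 after the annotated start, written 5′ to 3′ on the strand of the gene, with the first transcribed base as the capital letter. They lie at chr16:85803064-85803363 on the minus strand, chr10:86300162-86300461 on the plus strand and chrX:20869916-20870215 on the plus strand.
Adamts1: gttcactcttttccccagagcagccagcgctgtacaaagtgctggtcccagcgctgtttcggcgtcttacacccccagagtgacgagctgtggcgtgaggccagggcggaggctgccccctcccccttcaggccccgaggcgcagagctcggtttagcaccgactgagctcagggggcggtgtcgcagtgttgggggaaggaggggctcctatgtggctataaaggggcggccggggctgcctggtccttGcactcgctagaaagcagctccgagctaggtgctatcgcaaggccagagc
Timp3: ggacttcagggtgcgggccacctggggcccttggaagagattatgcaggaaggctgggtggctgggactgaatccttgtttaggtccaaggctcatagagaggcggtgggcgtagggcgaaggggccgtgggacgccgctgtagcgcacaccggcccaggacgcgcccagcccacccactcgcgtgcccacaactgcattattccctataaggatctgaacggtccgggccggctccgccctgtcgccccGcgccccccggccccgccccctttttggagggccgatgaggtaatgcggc
Timp1: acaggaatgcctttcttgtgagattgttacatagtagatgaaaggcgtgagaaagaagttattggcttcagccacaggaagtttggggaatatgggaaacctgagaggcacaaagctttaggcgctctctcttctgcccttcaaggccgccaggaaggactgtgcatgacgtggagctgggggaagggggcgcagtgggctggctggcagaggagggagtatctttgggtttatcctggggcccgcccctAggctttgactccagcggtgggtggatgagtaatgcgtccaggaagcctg

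These windows were searched on both strands for the GR core site AGAACA, for a full palindrome of AGAACA and TGTTCT 3 bases apart, which holds the core site, and for the AP-1 site TGAGTCA. None of the 3 windows holds any of them, which says only that these letters are not in these windows. Of all 32851 promoters of the table, 19% hold the core site, 0.00913% the palindrome and 5.2% the AP-1 site. Of the 46 members 32 have a promoter in the table, and 5 of them hold the core site (*Mmp10*, *Mmp11*, *Mmp7*, *Mmp12* and *Mmp23*), 0 the palindrome and 6 the AP-1 site (*Mmp1a*, *Mmp1b*, *Mmp13*, *Mmp3*, *Mmp10* and *Mmp7*). A match is a description of the letters and not a bound site.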

How the data were processed

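RNA of 20 tumors and 11 cultures was sequenced on the NovaSeq 6000 from QuantSeq 3′ libraries made from 500 ng of RNA. The authors checked reads with MultiQC 1.4 and FastQC 0.11.7, trimmed them with Trim Galore 0.6.5, aligned them with STAR 2.6.1d to GRCm38 and counted them with featureCounts, whose version was not stated, on Ensembl release 75. No strand setting was named, and the paper says that defaults were used where nothing was specified. The values deposited by the authors are raw integer read counts of 39179 genes, neither normalized nor filtered, and all 31 columns were used. The control cream and the time in culture are from the article's methods.

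Genes with at least 0.5 CPM in at least 3 samples of a fit were kept (15919 in tumors, 12525 in cultures, 16273 jointly). TMM factors ran from 0.753 to 1.127 in tumors and 0.929 to 1.042 in cultures. Groups were compared in R 4.3.3 by edgeR 4.0.16 with its quasi-likelihood F test, 1 mean per group, tumors and cultures apart, and jointly for tumors against cultures, with Benjamini-Hochberg adjustment over all genes. Adjusted p are from edgeR where no tool is named, and SE from the F statistic. DEGs passed 0.05 in adjusted p and 1.5 in fold. The lone parental GC culture that stays when the other is left out is assumed to vary like the other groups. Alternatives were DESeq2 1.42.0, its size factors within edgeR, the replicate number taken as a block, a fit of the compared groups alone, no filter, a filter of 10 or more counts in all samples, no minimum fold and each sample left out in turn. Tumors of the same number had a mean correlation of their deviations of 0.0584 over 30 pairs and cultures of 0.0198 over 15 pairs, and the fits reported had no block. The spread of replicates exceeded counting noise (chi-square per gene of 8.60 to 435 over 50 pairs). Pairs with GR KO control tumor 4 had 250 to 435, and the other pairs of its group 72.1 to 154. The pipeline was tested on simulated data.

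Values of every sample are given for members called with GC, other values for members called elsewhere, for all TIMPs and for those with a mean of at least 10 CPM in a group. *Mmp9* and *Mmp23* were given in every tumor, and *Mmp8* and the adipocyte markers named, after their values were seen. The members and lists were chosen with earlier results of these data known. Positions are from GENCODE M21, promoters from RefSeq. Protein sequences were not used here. The result of 1 gene outside the family is not reported here. Figures were drawn with matplotlib 3.10.9 in Python 3.11.15.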

Additional observations from a re-analysis of the deposited data

Results flagged for a closer look

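In 104 groups of 5 tumors, over the 26 members with values given, 11 values, in 7 tumors, stood apart from the rest of their group. The gap asked for is met in about 1 in 20 groups of normally distributed values, which would give about 5.2 values. The CPM were not transformed and the groups reuse the same 20 tumors, so 11 against 5.2 does not measure an excess over chance. GR KO control tumor 4 stood apart for *Mmp13* (86.3 CPM, the others 12.2 to 33.3), *Mmp12* (32.2, the others 5.62 to 10.5) and *Timp4* (0.193, the others at 0). With the others at 0, any count of *Timp4* would have stood apart. GR KO GC tumor 2 stood apart for *Adamts8* (31.2, the others 15.6 to 20) and *Adamts15* (19.8, the others 11.5 to 12.8), and parental GC tumor 2 for *Adamts12* (17.1, the others 8.06 to 10.3) and *Timp2* (6060, the others 2200 to 3260).

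The remaining values that stood apart were *Adamts9* in GR KO control tumor 2 (6.99 CPM, the others 1.71 to 3.21), *Adamts7* in GR KO control tumor 3 (25.0, the others 2.45 to 6.96) and in GR KO GC tumor 5 (15.0, the others 9.36 to 11), and *Timp1* in parental control tumor 5 (617, the others 281 to 375). What set these tumors apart was not tested.

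The effect of GC differed between parental and GR KO cells for *Adamts1*, by 1.91 on the log2 scale (adjusted p from edgeR = 0.00502, effects of 1.93 and 0.02), and for *Timp3*, by -1.12 (adjusted p from edgeR = 0.0322, effects of -1.06 and 0.06). The call of *Timp3* was lost with the replicate number as a block (-1.09, adjusted p from edgeR = 0.0606) and in most fits without 1 culture.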

How the results depend on the processing

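The fits without 1 sample are not part of the following count. Of 358 values of called members under an alternative setting, all kept their direction, 342 also kept their call and 16 lost it. Most of these values are from tumors set against cells. Calls that a setting left untested or without an adjusted p were not counted. DESeq2 called more members than edgeR with GC in parental tumors (5), in GR KO tumors (8), for their difference (5), between control tumors (6), for the difference in cells (3, adding *Mmp19*), between DMSO-treated cells (7, adding *Adamts10* and *Mmp3*) and for GR KO tumors against cells (25), and fewer for parental tumors against cells (22). In the same order DESeq2 called 2.37%, 11.2%, 5.13%, 6.31%, 1.02%, 11.4%, 56% and 48.4% of all genes, against 0.779%, 6.42%, 0.195%, 2.25%, 0.295%, 8.22%, 54.8% and 46.7% by edgeR. Without the filter the difference in tumors was called for 1 member, *Mmp23* (2.33%, against 0.231% of all genes). With the size factors of DESeq2 in edgeR, 6 were called in GR KO tumors (16.2%, against 6.61% of all genes). For GR KO tumors against cells 25 were called (67.6%, against 54.7%). With at least 10 counts in every sample, 7 were called in GR KO tumors, adding *Adamts14*, *Mmp2*, *Mmp23* and *Mmp3* (28%, against 11.6% of all genes). The difference in tumors was then called for 1, *Mmp23* (4%, against 0.616%), and 3 were called between DMSO-treated cells (20%, against 6.37%). That setting leaves 14 members to test in tumors against cells. Of these, 7 were called in the parental line (50%, against 48.3% of all genes) and 9 in the GR KO line (64.3%, against 55.4%), shares near those of all genes. With the replicate number as a block, 5 were called in GR KO tumors, adding *Mmp23* (13.5%, against 6.24% of all genes). The difference was then called for 1 member in tumors, *Mmp23* (2.7%, against 0.905%), and for 1 in cells, *Adamts1* (4.55%, against 0.216%). For parental tumors against cells, edgeR called 24 members (64.9%, against 46.7% of all genes). It called 21 with that block, losing *Adamts3*, *Mmp8* and *Mmp27* (56.8%, against 44.8%), and 22 without the filter (51.2%, against 33.1%). With the compared groups alone it called 23 of 33 tested (69.7%, against 54.6%). For GR KO tumors against cells, it called 24 (64.9%, against 54.8% of all genes) and 25 with the block (67.6%, against 53.4%). With the compared groups alone it called 19 of 32 tested (59.4%, against 51.2%). There *Adamts7*, *Adamts9*, *Adamts10* and *Adamts17* were lost and *Mmp8* was not called. Where the construction does not show it, the cause was not tested.

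With the replicate block *Timp3* had a difference in cells of -1.09 (adjusted p = 0.0606, over its 5 alternatives 5.98e-06 to 0.0606) and *Mmp19* a log2 fold change in parental cells of 1.72 (0.0805, over 5 alternatives 1.51e-05 to 0.0805). *Timp4* in GR KO tumors had an adjusted p of 0.0577 without the filter and 0.146 with the compared groups alone (over 4 alternatives 0.0477 to 0.146). *Mmp16* between DMSO-treated cells had 0.0513 with the compared groups alone (over 6 alternatives 0.00138 to 0.0513). The cause was not tested.

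Leaving out 1 sample, the count ran from 2 to 2 in parental tumors, 2 to 11 in GR KO tumors, 0 to 7 for their difference, 3 to 7 between control tumors, 1 to 2 in parental cells, 0 to 0 in GR KO cells, 1 to 2 for the difference in cells, 3 to 5 between DMSO-treated cells, and 19 to 25 and 21 to 25 for parental and GR KO tumors against cells.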

Other observations

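The numbers are small: 5 tumors per group, 3 cultures in most groups and 2 of parental cells with GC, so several calls were lost without 1 sample, and others were gained without 1. The comparisons of GC-treated with control tumors and of both control groups share their controls, as do those in cells, and are not independent. The GR KO line is 1 clone. Tumors hold host cells with GR, and which cells made each transcript was not measured. RNA says nothing of secretion, activation or activity of these proteases and inhibitors. Of the 46 members, 24 could not be tested in cells.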
